A study of Mus musculus with 8 samples.

Results

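Mitochondrial fatty acid oxidation was followed in white adipocytes through 10 genes, namely Cpt1a, Cpt2, Acadvl, Acadl, Acadm, Acads, Hadha, Hadhb, Hadh and Acaa2. They were taken by name as enzymes of this pathway, by a rule that uses no measured value, though with earlier results of these data known. Each has 1 line among the 30387 genes of the table, and all 10 were expressed well enough to be tested. Primary white adipocytes were isolated from epididymal fat pads, and their total RNA was sequenced. One genotype was WT (wild-type littermates), the other Ad-Yap/Taz-KO (hereafter KO), a line in which Adipoq-Cre, Cre recombinase under the adiponectin promoter, deletes both floxed alleles of Yap and of Taz. Mice of either genotype received normal chow (SD) or HFD for 4 weeks from week 5 of age by the sample descriptions (the general animal methods name a later start), and each of the 4 groups held 2 libraries, by the study's methods 1 per mouse. The study's methods name male animals for in vivo work unless stated otherwise. The Cre is constitutive, with no inducer, and the isolated cells may include other cells of the fat pad.

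Fatty acids enter the pathway as acyl-CoA. CPT1 on the outer mitochondrial membrane transfers the acyl chain to carnitine, a step inhibited by malonyl-CoA, and CPT2 on the inner side returns it to CoA. In the matrix, acyl-CoA dehydrogenases of overlapping chain length specificity open each round of oxidation, the trifunctional protein carries out the following steps on long chains, and separate hydratase, dehydrogenase and thiolase enzymes finish the shorter ones. White adipocytes mainly store and release fatty acids, and oxidise only some of them.

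Promoter windows of 300 bases around the transcription start were given by RefSeq (GRCm38.p6) for 9 of the 10 genes, Acaa2 being the gene without one used here. The 3 windows below belong to the gene with the largest diet difference, to the long-chain dehydrogenase that followed it, and to the pair of subunit genes that start head to head. Capitals mark, on either strand, GGAATG (the core read by TEAD proteins, through which YAP and TAZ bind DNA), AGGTCA (the half-site of nuclear receptors such as the PPARs) and GGGCGG (the GC box).

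Cpt1a, chr19:3323051-3323350, plus strand: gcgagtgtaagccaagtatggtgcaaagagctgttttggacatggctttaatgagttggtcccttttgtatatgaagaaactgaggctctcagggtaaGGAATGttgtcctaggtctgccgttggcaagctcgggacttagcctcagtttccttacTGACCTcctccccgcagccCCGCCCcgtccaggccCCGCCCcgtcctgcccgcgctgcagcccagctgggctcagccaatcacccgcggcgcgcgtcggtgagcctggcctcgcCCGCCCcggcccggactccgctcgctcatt
Acadl, chr1:66863260-66863559, minus strand: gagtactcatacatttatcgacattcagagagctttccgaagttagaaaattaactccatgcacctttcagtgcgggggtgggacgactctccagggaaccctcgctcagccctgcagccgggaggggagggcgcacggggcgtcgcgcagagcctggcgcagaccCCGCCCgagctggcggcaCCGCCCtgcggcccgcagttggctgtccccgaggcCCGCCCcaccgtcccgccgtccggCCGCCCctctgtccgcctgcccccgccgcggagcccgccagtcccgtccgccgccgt
Hadha and Hadhb, shared stretch chr5:30155003-30155230, plus strand: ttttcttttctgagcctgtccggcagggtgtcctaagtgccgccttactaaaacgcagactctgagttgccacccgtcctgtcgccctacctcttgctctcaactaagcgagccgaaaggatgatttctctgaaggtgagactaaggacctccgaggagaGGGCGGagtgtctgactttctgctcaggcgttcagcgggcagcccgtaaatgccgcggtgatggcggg

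Of the 9 windows, 1 held GGAATG, that of Cpt1a, with its first base 152 bases before the start. The motif is present in 14.7% of the 32851 RefSeq promoter windows of this length. AGGTCA stood in 3 of the 9 windows, those of Cpt1a, Acadvl and Acadm, against 16.3% of all windows, and in Acadm it was part of AAGGTCA, the extended half-site that estrogen-related receptors read, which 4.72% of windows hold. The GC box was present in 7 of the 9 windows, against 35.7% of all. The share of G and C was 50.7% in the Acadvl window and 57.3% to 70.3% in the others, against a median of 52.7% over all windows. The part of base content in these matches was not tested. The start sites of Hadha and Hadhb, which encode the subunits of 1 complex, lie 273 bases apart on opposite strands. These matches describe letters in the sequence, and binding was not measured here.

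The deposited values are normalized counts, that is, exon read counts of each gene scaled by a size factor and rounded. They rest on 14 to 22.3 M reads on genes, and 1 read is worth 0.795 to 1.13 normalized counts. Wwtr1, which encodes TAZ, ranged from 4743 to 7121 in the WT and from 1957 to 2707 in the KO libraries, and Yap1 from 2333 to 2776 and from 1549 to 2068, so neither overlapped between genotypes. Both were called lower in KO on SD, and on HFD Wwtr1 was (log2 -1.56, adjusted p = 3.1e-05) and Yap1 was not (log2 -0.42, adjusted p = 0.059). The libraries differed in other cells. The summed count of 14 macrophage markers was 5575 and 5622 in WT on SD and 2579 and 2794 in WT on HFD, but 19730 and 34909 in KO mice on SD and 35966 and 40332 on HFD. The summed count of 13 adipocyte markers was 343178 and 183796 in KO mice on HFD, below the 6 other libraries, which held 401980 to 691779. Bulk RNA cannot tell fewer cells of a type from less RNA per cell. Both WT HFD libraries were unusually alike at high counts. Over genes with a mean of 1000 to 5000 their squared difference was 6.18 times the Poisson expectation. It was 32.3, 69.2 and 104 times in the pairs WT SD, KO SD and KO HFD. At means of 5 to 20 it was 4.87, against 4.66, 6.43 and 4.93. Over the 10 genes it was 6.94, close to the 9.35 of WT SD, against 71.7 and 285 in KO SD and KO HFD. Each library is therefore printed here rather than a mean and SD. Values with the WT HFD pair averaged to 1 sample are given where they change a count. The KO HFD libraries stood far apart, with all 10 oxidation genes higher in replicate 1, by up to 1.99-fold (median log2 difference 0.48, against 0 over all tested genes). In the KO SD pair all 10 were higher in replicate 2, with a median log2 difference of -0.26 for replicate 1 against replicate 2.

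The level of each gene per kb of its principal transcript set the scale of the pathway in WT adipocytes on SD. Acadl was the highest, with 1710 and 1883 normalized counts per kb, and Hadh and Acadm followed with means of 1686 and 1616. Acadl and Hadh overlapped in this order. Hadha reached 834 and Acaa2 655. Acadvl, Cpt2 and Acads were close together at 488, 485 and 467, with each overlapping its neighbour. Hadhb, at 302, and Cpt1a, at 238, were the lowest per kb. With the length of all annotated exons in place of the principal transcript, Hadh fell from the second to the fourth place and Hadhb became the lowest, at 93.9 per kb. Together the 10 genes made up 0.12% of all normalized counts in both WT libraries on SD and 0.152% and 0.154% in those on HFD.

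In WT adipocytes, 7 of the 10 genes were called higher after 4 weeks of HFD, none lower, and in all 10 both HFD libraries lay above both SD libraries. The count was 3 with no filter on low values and 1 with all libraries scaled to the same total. It was 2 with upper-quartile scaling or quantile normalization, and Cpt1a was called each time. Over all genes the calls of higher fell in that order from 1643 to 881, 470, 568 and 851. Acadl was the other gene called with upper-quartile scaling and quantile normalization, and was not called with the same total (log2 0.54). The calls of Cpt2, Acadm, Hadha, Hadhb and Acaa2 given for this comparison did not hold under the 3 other scalings. Without any 1 of the 4 libraries, the log2 fold change was 0.88 to 1.02 for Acadl and 0.80 to 1.08 for Cpt2. It was 0.59 to 0.74 for Acadm, Hadha, Hadhb and Acaa2. With the WT HFD pair averaged, the median of the 10 genes was 0.66. Calls required an adjusted p of 0.05 or less together with an absolute log2 fold change of 0.59 or more in limma, fitted over all 18800 tested genes. Over those genes 8.74% were called higher and 9.22% lower, and 31.4% had both HFD libraries above both SD libraries. The median log2 fold change of the 10 genes was 0.66, against -0.08 over all genes.

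**Figure D1:**
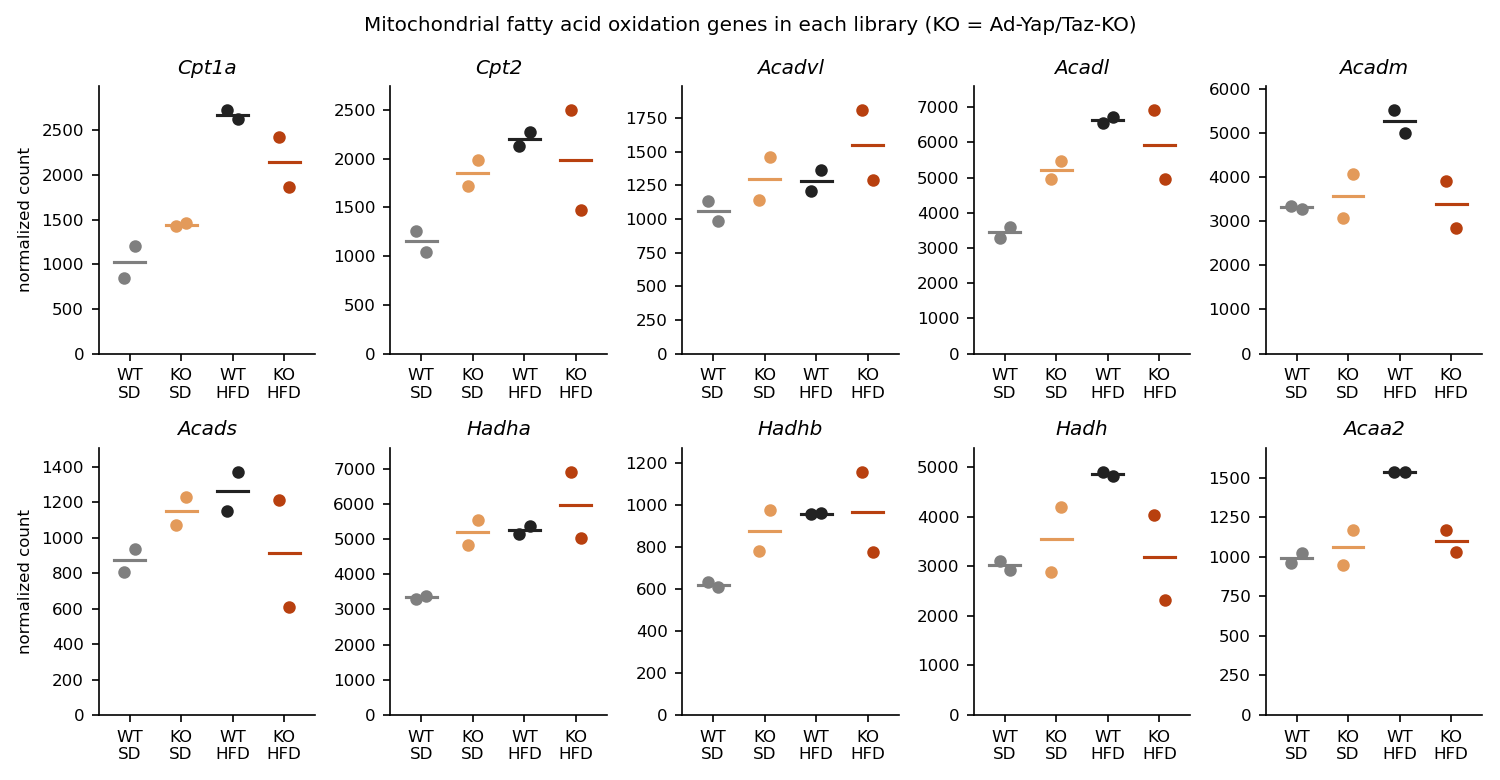
Normalized counts (vertical axes, from 0) of the 10 genes in each of the 8 libraries, with the group mean as a line. In all 10 panels both WT HFD points lie above both WT SD points, and in each the KO HFD points are spread more widely than the WT HFD points.

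The largest difference was in the carnitine shuttle. Cpt1a (ENSMUSG00000024900, chromosome 19, 3323301 to 3385732, GRCm38), the liver-type CPT1 and the entry step, reached 844 and 1209 normalized counts in the WT libraries on SD and 2723 and 2626 in those on HFD. This was a 2.65-fold difference (log2 1.40, standard error 0.19, limma adjusted p = 0.00073), the largest of the 10. In KO adipocytes Cpt1a had 1431 and 1457 on SD and 2424 and 1863 on HFD, a log2 fold change of 0.56 (95% interval 0.15 to 0.97) that was not called (adjusted p = 0.18), although the pairs did not overlap. Cpt1b, the muscle-type CPT1, had 0 to 11 normalized counts in the 8 libraries. In GENCODE vM21, Gm44502 covers 81.4% of its exon bases on the same strand. Gm44502 has no line in the table, and whether it took part in the counting, where reads over several genes were left out, was not tested. Cpt1c, the brain-type form, ranged from 28 to 150.

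Cpt2 (ENSMUSG00000028607, chromosome 4, 107903981 to 107923610), the inner-side enzyme, had 1261 and 1041 normalized counts in WT on SD and 2129 and 2275 on HFD. The difference was 1.92-fold (log2 0.94, standard error 0.22, adjusted p = 0.012). Its KO libraries had 1717 and 1986 on SD and 2498 and 1477 on HFD, so the diets overlapped there. Slc25a20, the carrier that moves acylcarnitine across the inner membrane, had 453 and 400 in WT on SD and 746 and 661 on HFD, and just missed the limit (log2 0.72, adjusted p = 0.051).

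The acyl-CoA dehydrogenases differed among themselves. Acadl (ENSMUSG00000026003, chromosome 1, 66830839 to 66863277), the long-chain enzyme, had 3276 and 3607 normalized counts in WT on SD and 6561 and 6727 on HFD, a 1.93-fold difference (log2 0.95, standard error 0.17, adjusted p = 0.0036). In KO adipocytes it had 4954 and 5484 on SD and 6914 and 4968 on HFD, with overlapping diets. Acadm (ENSMUSG00000062908, chromosome 3, 153922357 to 153944632), the medium-chain enzyme, had 3341 and 3273 in WT on SD and 5507 and 5004 on HFD. It was called higher as well (log2 0.67, standard error 0.18, adjusted p = 0.025). Its KO libraries held 3067 and 4060 on SD and 3906 and 2849 on HFD.

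Acadvl and Acads did not pass. Acadvl (ENSMUSG00000018574, chromosome 11, 70010183 to 70015411), the very long-chain enzyme, had 1134 and 982 normalized counts in WT on SD, 1206 and 1364 in WT on HFD, 1139 and 1459 in KO mice on SD and 1808 and 1293 on HFD. Its log2 fold change with HFD in WT was 0.28 (95% interval -0.14 to 0.70, adjusted p = 0.33), the smallest of the 10. Exons of Dvl2 on the opposite strand cover 42.9% of the Acadvl exon bases, and whether the counting used the strand is not given in the sources used here, so its counts are less certain. Acads (ENSMUSG00000029545, chromosome 5, 115110299 to 115119346), the short-chain enzyme, had 808 and 937 in WT on SD and 1153 and 1372 on HFD (log2 0.53, 95% interval -0.03 to 1.09, adjusted p = 0.16). In KO adipocytes it had 1072 and 1230 on SD and 1214 and 610 on HFD, so its lowest and one of its highest values came from the same group.

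Both subunits of the trifunctional protein moved by nearly the same amount. Hadha (ENSMUSG00000025745, chromosome 5, 30118304 to 30155162), the alpha subunit with the hydratase and long-chain hydroxyacyl-CoA dehydrogenase activities, had 3311 and 3386 normalized counts in WT on SD and 5143 and 5373 on HFD (log2 0.65, standard error 0.17, adjusted p = 0.019). Hadhb (ENSMUSG00000059447, chromosome 5, 30155248 to 30184593), the beta subunit with the thiolase activity, had 631 and 607 on SD and 954 and 962 on HFD (log2 0.63, standard error 0.20, adjusted p = 0.046). In KO adipocytes Hadha had 4840 and 5537 on SD and 6911 and 5028 on HFD, and Hadhb had 778 and 974 on SD and 1157 and 777 on HFD. Over the 8 libraries the log2 levels of this head-to-head pair had a Pearson correlation of 0.96, given as a description of libraries that share their groups.

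The last steps on shorter chains showed differences of like size. Hadh (ENSMUSG00000027984, chromosome 3, 131233419 to 131272101), the medium- and short-chain hydroxyacyl-CoA dehydrogenase, had 3106 and 2926 normalized counts in WT on SD and 4903 and 4823 on HFD, and missed the limit (log2 0.69, standard error 0.23, adjusted p = 0.056). Acaa2 (ENSMUSG00000036880, chromosome 18), the mitochondrial 3-ketoacyl-CoA thiolase, had 963 and 1023 on SD and 1538 in each HFD library (log2 0.63, standard error 0.16, adjusted p = 0.019). In KO adipocytes Hadh had 2893 and 4187 on SD and 4039 and 2326 on HFD, and Acaa2 had 947 and 1172 on SD and 1172 and 1028 on HFD. Neither separated the diets in that genotype.

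In KO adipocytes no gene of the 10 was called between HFD and SD, where 1.07% of all tested genes were called in either direction. Their log2 fold changes ran from -0.42 for Acads to 0.56 for Cpt1a, with a median of 0.09 against 0.03 over all genes. The difference between the genotypes in the response to diet was tested as an interaction term. All 10 interaction terms were negative (9 of 10 with the same total or quantile normalization and 7 of 10 with upper-quartile scaling), with a median of -0.76 against 0.10 over all genes, and 2 were called, Cpt1a (log2 -0.85, standard error 0.27, adjusted p = 0.047) and Acadl (log2 -0.78, standard error 0.24, adjusted p = 0.042), where 8.73% of all genes were called lower. Cpt2 and Acadm came next (adjusted p = 0.065 and 0.064), and Acadvl had the smallest term, -0.04 (95% interval -0.63 to 0.56). Markers of other cells moved in the same interaction. It was called lower in 10 of 13 adipocyte markers (median -1.40; 6 with the same total, 4 with upper-quartile scaling and 1 with quantile normalization), and called higher in 13 of 14 macrophage (median 1.89), 7 of 8 endothelial (1.39) and 7 of 8 fibroblast and progenitor markers (1.88). Of the 14 mitochondrial content markers 4 were called lower and all 14 were negative (median -0.60), against 0 called and 10 negative with the same total. The part of other cells in the interaction of the 10 genes was not tested. The count of 2 genes called rested on single libraries. The calls over all genes also changed with the library left out. The median term of the 10 genes was -1 without KO HFD replicate 1 and -0.86 without KO SD replicate 1. It was -0.48 without KO HFD replicate 2 and -0.58 without KO SD replicate 2. Without any 1 of the WT libraries it was -0.79 to -0.65, and with the WT HFD pair averaged it was -0.77.

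**Figure D2:**
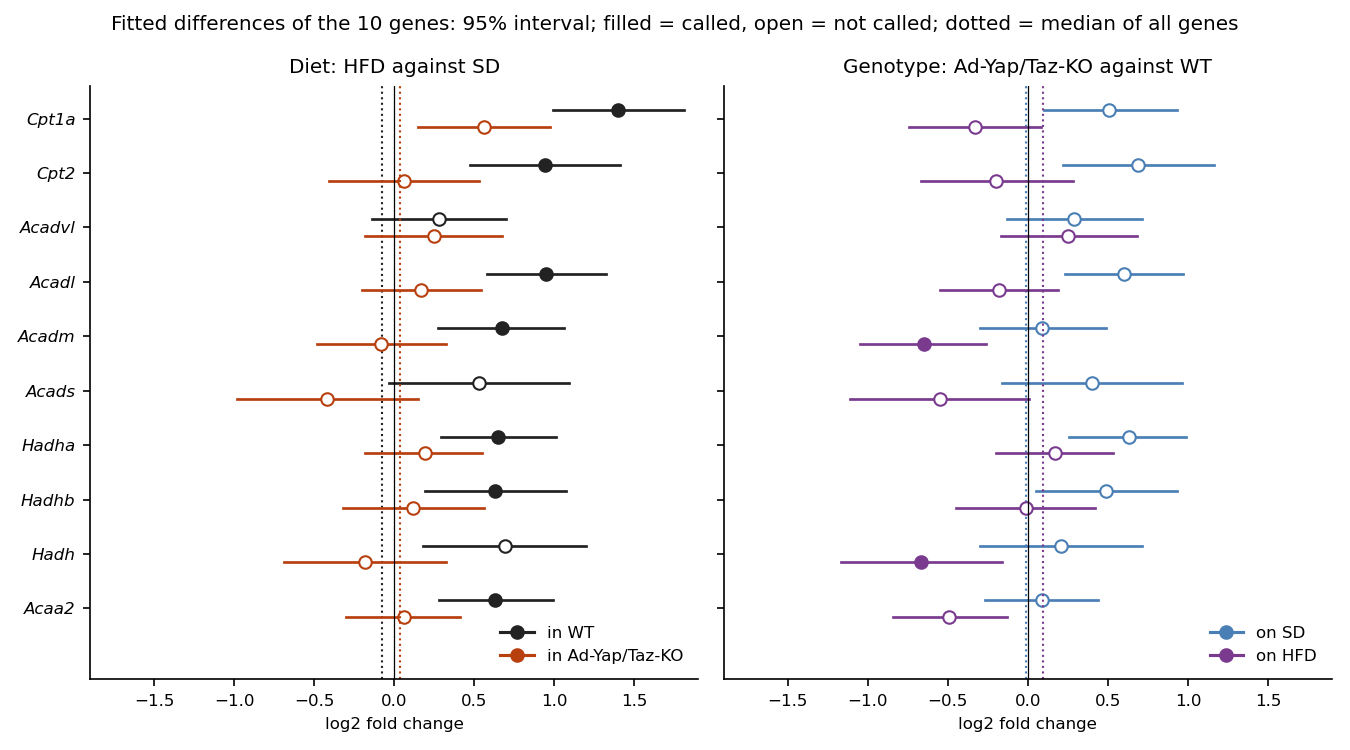
Fitted log2 fold changes (horizontal axes) of the 10 genes with 95% intervals, for diet within each genotype on the left and for genotype on each diet on the right. Filled points were called and open points were not, and the dotted lines are the medians of all tested genes. In WT 7 diet points are filled and in KO none, and on HFD the genotype points of Acadm and Hadh are filled.

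The scale of the libraries bears on these counts. Scaling all libraries to the same total moved the median of all genes by -0.40 for HFD against SD in WT, by 0.37 for KO against WT on HFD and by 0.42 for the interaction. With that scaling the calls over all genes for HFD against SD in WT split into 470 higher and 3568 lower, in place of 1643 and 1734, and 1 of the 10 genes, Cpt1a, was called higher (log2 0.99, adjusted p = 0.0024). Measured from the median of all genes, the 10 diet differences in WT had a median of 0.74 with the deposited scaling, 0.72 with the same total and with upper-quartile scaling, and 0.40 with quantile normalization, and all 10 lay above the median of all genes each time. Cpt1a was the only member called under each of the 17 alternatives for this comparison, with a log2 fold change between 0.99 and 1.66 and an adjusted p between 0.00038 and 0.026.

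On SD, no gene of the 10 was called between KO and WT adipocytes, although KO libraries lay above WT libraries in most. All 10 log2 fold changes were positive, with a median of 0.45 against -0.01 over all genes. In 7 of the 10 both KO libraries lay above both WT libraries, as in 22.8% of all tested genes. None passed the limits, with 3.21% of all genes called higher and 1.5% lower. The 7 were Cpt1a, Cpt2, Acadvl, Acadl, Acads, Hadha and Hadhb. The largest differences were 0.69 for Cpt2 (95% interval 0.22 to 1.16, adjusted p = 0.11), 0.63 for Hadha (0.26 to 0.99, adjusted p = 0.053) and 0.60 for Acadl (0.23 to 0.97, adjusted p = 0.069). The overlapping genes were Acadm, Hadh and Acaa2, with 0.09, 0.21 and 0.09. With quantile normalization 2 of the 10, Hadha and Acadl, were called higher (adjusted p = 0.030 and 0.046), and 1 was called with a pseudocount of 8 or with the minimum mean raised to 50. This comparison and that of the diets in WT share the WT SD libraries. The macrophage markers were higher in the KO libraries (12 of 14 called, median log2 2.19), whereas no adipocyte marker was called (median -0.09). Of 5 tested brown and beige adipocyte markers, Cidea, Cox8b and Dio2 were called higher (median of the 5 tested 3.22). All 6 listed markers, Elovl3 included, summed to 547 and 596 against 135 and 53. Ucp1, the uncoupling protein that defines brown fat, had 27 and 3 in KO against 23 and 18 in WT (log2 -1.01, adjusted p = 0.61), and Otop1 was not called (2.81, adjusted p = 0.065). These genes were named after their values were seen. The part of other cells in these values was not tested.

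On HFD, 2 of the 10 genes were called lower in KO than in WT adipocytes and none higher, a share near that over all tested genes. Acadm (3906 and 2849 against 5507 and 5004 normalized counts) was called lower (log2 -0.65, standard error 0.18, limma adjusted p = 0.015), and so was Hadh (4039 and 2326 against 4903 and 4823, log2 -0.67, standard error 0.23, adjusted p = 0.043). These 2 of 10 genes compare with 15.1% called lower and 17.1% called higher over all tested genes. Acaa2 passed on p but not on fold (log2 -0.49, standard error 0.16, adjusted p = 0.036). With Cpt1a, they made 4 of 10 genes with both KO libraries below both WT libraries, where the share over all genes was 33.0%. Hadha and Acadvl were the genes with positive values, 0.17 (95% interval -0.20 to 0.53) and 0.25 (-0.17 to 0.68), and Hadhb was at -0.01 (-0.45 to 0.42). Over the 10 genes the median was -0.26, against 0.09 over all.

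Neither call on HFD held in every fit. Under scaling to the same total, which moves all genes alike, Acadm was at -0.27 (adjusted p = 0.20) and Hadh at -0.28 (adjusted p = 0.29). From the median of all genes both stayed where they were, Acadm at -0.74 with either scaling and Hadh at -0.76 and -0.75, but with quantile normalization they were at -0.26 and -0.27. With the same total, Acadvl was called higher (0.64, adjusted p = 0.012), and the calls over all genes became 4618 higher and 1367 lower in place of 3213 and 2840. Without KO HFD replicate 2 Acadm and Hadh were at -0.43 and -0.27, and without replicate 1 at -0.88 and -1.06. Without WT HFD replicate 1 the values of Acadm, Acads, Hadh and Acaa2 were -0.67 to -0.49, as with all libraries. Without WT HFD replicate 2 they were -0.72 to -0.42. Measured from the median of all genes, the 10 values had a median of -0.36 with the deposited scaling, -0.35 with the same total and 0.05 with quantile normalization.

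On both diets the genotype difference had a higher median in the genes of the long-chain steps than in the others. The 6 genes of the long-chain steps are Cpt1a, Cpt2, Acadvl, Acadl, Hadha and Hadhb, and the 4 of the medium- and short-chain steps are Acadm, Acads, Hadh and Acaa2; this division is textbook knowledge but was applied after the values had been seen, so it is given without a test. On HFD the log2 fold changes of KO against WT were -0.33 to 0.25 in the long-chain genes and -0.67 to -0.49 in the others (medians -0.10 and -0.60), without overlap. This gap rested on both KO HFD libraries. Without replicate 2 the ranges were -0.14 to 0.50 and -0.43 to -0.05, with Acads above Cpt1a, and without replicate 1 Cpt2 and Acaa2 met at -0.58. On SD the values of the long-chain genes were 0.29 to 0.69 and those of the others 0.09 to 0.40 (medians 0.55 and 0.15), and overlapped, with Acads (0.40) above Acadvl (0.29). Whether the classes differ more on one diet was not tested. The diet difference in WT was 0.28 to 1.40 in the long-chain genes and 0.53 to 0.69 in the others, so these overlapped as well.

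The balance of the 2 classes can be read within each library, where the size factor cancels. The mean log2 level per kb of the long-chain genes minus that of the others was -0.81 and -0.83 in WT on SD and -0.41 and -0.56 in KO mice on SD. On HFD it was -0.66 and -0.62 in WT and -0.15 and -0.06 in KO mice. The 4 groups did not overlap, KO lay above WT on each diet and HFD above SD in each genotype. As the classes were set with these values known, the balance restates those differences by library and is no separate evidence. The KO HFD libraries lay close together in this balance, although replicate 1 exceeded replicate 2 in the level of each member. Pairs of long-chain genes had a median correlation of 0.88 over the 8 libraries (15 pairs, 0.55 to 0.97) and pairs of the others 0.86 (6 pairs, 0.63 to 0.96). Pairs across the classes had a median of 0.63 (24 pairs, 0.30 to 0.80), in the same genes and libraries. The ranges overlapped. The macrophage marker sum was also higher in all KO libraries, and its part in the balance was not tested.

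**Figure D3:**
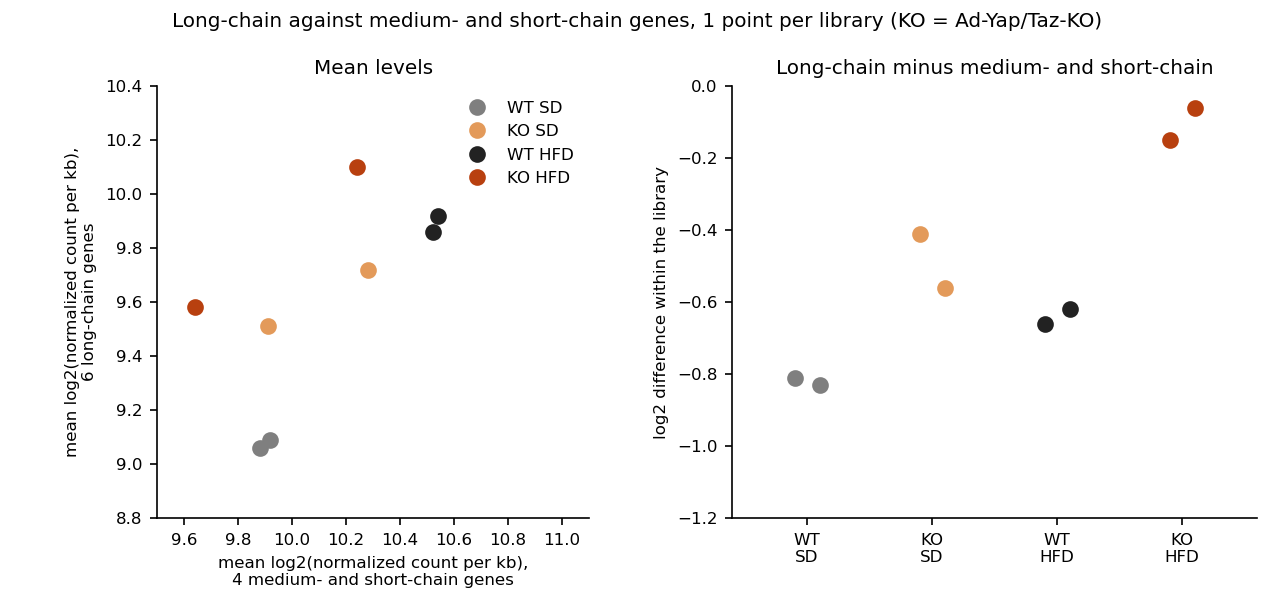
Mean log2 level per kb of the 6 long-chain genes against that of the 4 medium- and short-chain genes in each library (left), and their difference within the library (right, log2). The left plot has the KO points above the WT points at like levels of the shorter-chain genes, and on the right the 4 groups fall at -0.83 to -0.81, -0.56 to -0.41, -0.66 to -0.62 and -0.15 to -0.06.

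The rest of the pathway was read from lists of related genes. In WT on HFD against SD, 4 of 14 other mitochondrial beta-oxidation proteins were called higher and none lower (median log2 0.49, where 8.74% of all tested genes were called higher and 9.22% lower), among them Acad11 (1344 and 1399 on SD, 2945 and 3008 on HFD, log2 1.12, adjusted p = 0.012), Decr1, which is needed for unsaturated chains (log2 0.90, adjusted p = 0.027), and Etfdh, which passes electrons from the dehydrogenases to ubiquinone (log2 0.78, adjusted p = 0.0097). Echs1, the short-chain hydratase, had 1690 and 1798 on SD and 2474 and 2284 on HFD (log2 0.45, adjusted p = 0.18). Of 11 tested activation and shuttle partners 3 were called higher, namely Acsl4 (log2 0.98), Crat (0.77) and Acsl3 (0.66). Peroxisomal beta-oxidation had 5 of 15 called higher, with Hsd17b4 at 1.22, Acaa1b at 0.91 and Decr2 at 0.84. None of these lists had a gene called lower in this comparison. These counts depend on the scaling. With the same total, 1 of 14, 0 of 11 and 1 of 15 were called higher, and 2 of the 11 activation and shuttle partners lower. Of 14 mitochondrial content markers, which track the organelle rather than oxidation, 3 were called higher (Vdac1 0.85, Immt 0.73, Cs 0.68) and all 14 were positive, with a median of 0.49, against 0 called, 9 positive and a median of 0.08 with the same total. The summed count of the 10 genes was 83.9% and 84.0% of that of these markers in WT on SD and 97.5% and 96.6% on HFD. In KO mice it was 88.3% and 88.2% on SD and 112% and 103% on HFD, so this share was higher with HFD in both genotypes. In WT on HFD against SD 12 of 14 macrophage, 5 of 8 endothelial and 4 of 8 fibroblast markers were called lower and 2 of 13 adipocyte markers were called higher and 1, Cfd, lower (log2 -1.36, adjusted p = 0.0011; median of the list 0.66), and their part in these values was not tested.

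Of 18 tested regulators of these genes, 3 were called higher with HFD in WT and none lower, where 8.74% of all tested genes were called higher (2 higher and 3 lower with the same total), with Lpin1 at log2 1.35 and Tfam at 0.68. The third was Esrrg, a relative of Esrra, which lies under the mean of 50 used for naming and was named after its values were seen. It had 9 and 10 normalized counts in WT on SD, 77 and 47 in WT on HFD, 53 and 55 in KO mice on SD and 65 and 60 in KO mice on HFD. Its diet difference in WT (log2 2.54, adjusted p = 0.0051) was the largest of the list, and it was called higher in KO against WT on SD as well (2.39, adjusted p = 0.013). Ppara, the receptor that drives oxidation genes in liver, was low (170 and 133 normalized counts on SD, 189 and 200 on HFD, log2 0.37, adjusted p = 0.37). Ppargc1a was at 0.12 (adjusted p = 0.84), Esrra at 0.30 (adjusted p = 0.51) and Pparg, the receptor of the adipocyte programme, at 0.45 (adjusted p = 0.080). Of 10 PPAR-responsive genes outside beta-oxidation 3 were called higher (2 higher and 1 lower with the same total), with Ucp3 at 2.09, Plin2 at 1.13 and Cd36 at 0.67.

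On HFD, 4 of these lists had more genes called lower than higher in KO against WT adipocytes with the deposited scaling, and the mitochondrial content markers did too, where 15.1% of all tested genes were called lower and 17.1% higher. With the same total, 1 of 14 other mitochondrial beta-oxidation proteins, 3 of 15 peroxisomal genes, 0 of 11 activation and shuttle partners, 5 of 18 regulators and 0 of 14 mitochondrial content markers were called lower, and 0, 2, 2, 1 and 0 higher. The values that follow are with the deposited scaling. The other mitochondrial beta-oxidation proteins had 7 of 14 called lower and none higher (median -0.56), with Acot2 at -1.01, Echs1 at -0.99, Acad11 at -0.83 and Decr1 at -0.79, whereas Etfdh was at -0.18 (adjusted p = 0.45). Peroxisomal beta-oxidation had 7 of 15 called lower and 2 higher, with Abcd2 at -1.67, Decr2 at -1.23 and Acaa1b at 1.21. Acaa1a is a close copy of Acaa1b, and how far their reads were told apart was not tested. Of the activation and shuttle partners 3 of 11 were called lower and 1 higher, with Acsl4 at -0.75, Mlycd at -0.74 and Cpt1c at 1.83, and Slc25a20 was not called (0.26, adjusted p = 0.42). Of the regulators 5 of 18 were called lower and 1 higher, with Klf15 at -1.80, Rxra at -1.62 and Lpin1 at -1.34. Pparg had 4129 and 4020 in WT and 1819 and 1523 in KO mice (log2 -1.29, adjusted p = 0.0001). Ppara (-0.29), Ppargc1a (-0.15) and Esrra (-0.51) were not called. Of the 10 PPAR-responsive genes 3 were called higher and 1 lower, with Pdk4 (1.35) and Plin2 (0.85) called higher and Angptl4 (-0.70) called lower.

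The adipocyte markers are given beside the 10 genes for this comparison. Of 13 adipocyte markers 12 were called lower (11 with the same total, 9 with quantile normalization), with a median of -1.50 and Lep, Plin4 and Cidec at -4.45, -2.07 and -2.07, against the median of -0.26 of the 10 genes. Per library, the summed count of the 10 genes was 4.02% and 3.84% of that of the adipocyte markers in WT on SD, 4.6% and 4.7% in WT on HFD, 5.68% and 5.10% in KO mice on SD and 9.34% and 12.1% in KO mice on HFD. The last group lay above the 6 other libraries. The same held for the mitochondrial content markers, at 4.71% and 4.86% in WT and 8.37% and 11.7% in KO mice on HFD, and for the other mitochondrial beta-oxidation proteins, at 2.90% and 2.97% and at 4.94% and 5.81%. The difference between the 10 genes and these lists was not tested. Markers of macrophages (13 of 14 called higher, median 4.13), fibroblasts and progenitors (6 of 8) and endothelial cells (3 of 8) were higher in the same libraries, and mitochondrial content markers had 3 of 14 called lower (median -0.41). How much of the signal of the 10 genes came from other cells was not tested.

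**Figure D4:**
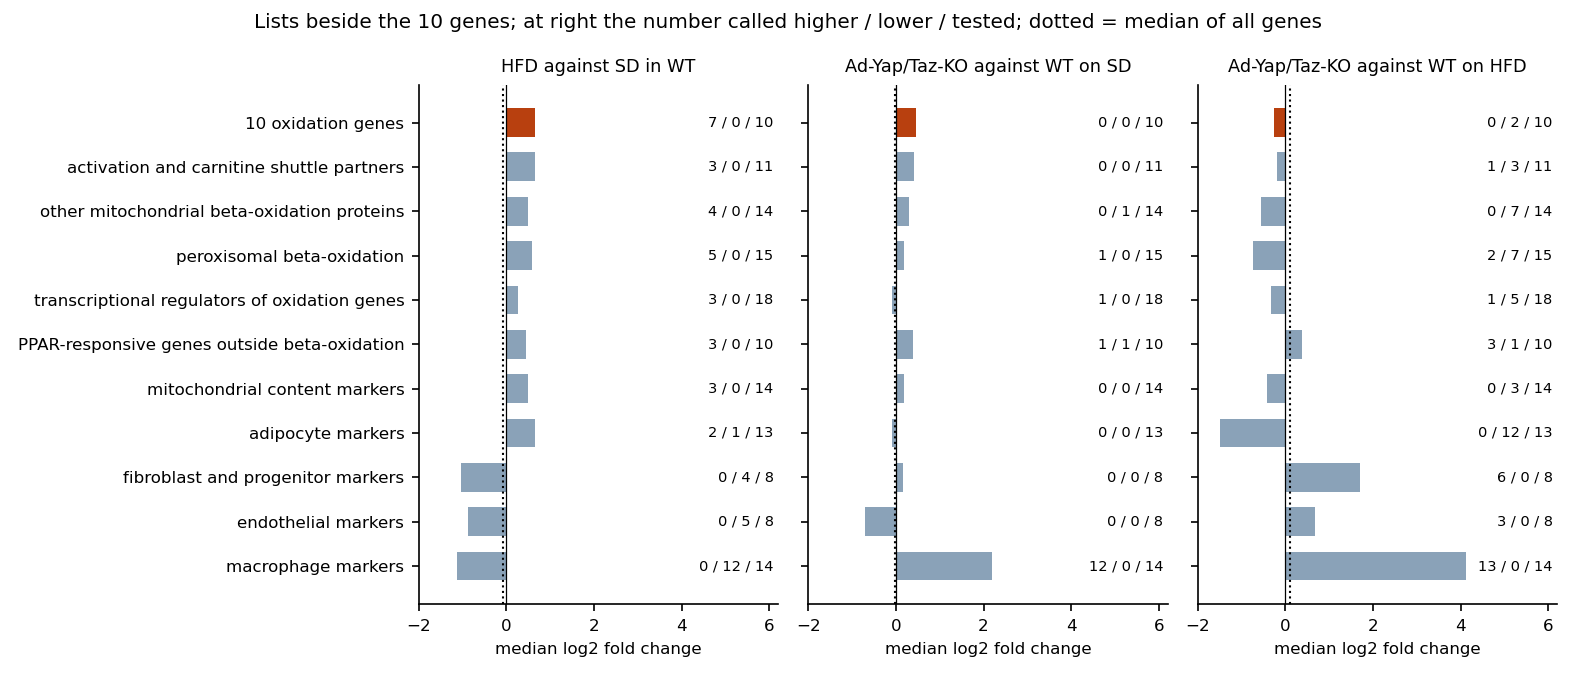
Median log2 fold change (horizontal axes) of the 10 genes and of 10 other lists in 3 comparisons, with the number called higher, called lower and tested at the right of each bar, and the median of all genes as a dotted line. The 10 genes have a median of 0.66, 0.45 and -0.26, and on HFD the adipocyte markers are at -1.50 and the macrophage markers at 4.13.

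**Figure D5:**
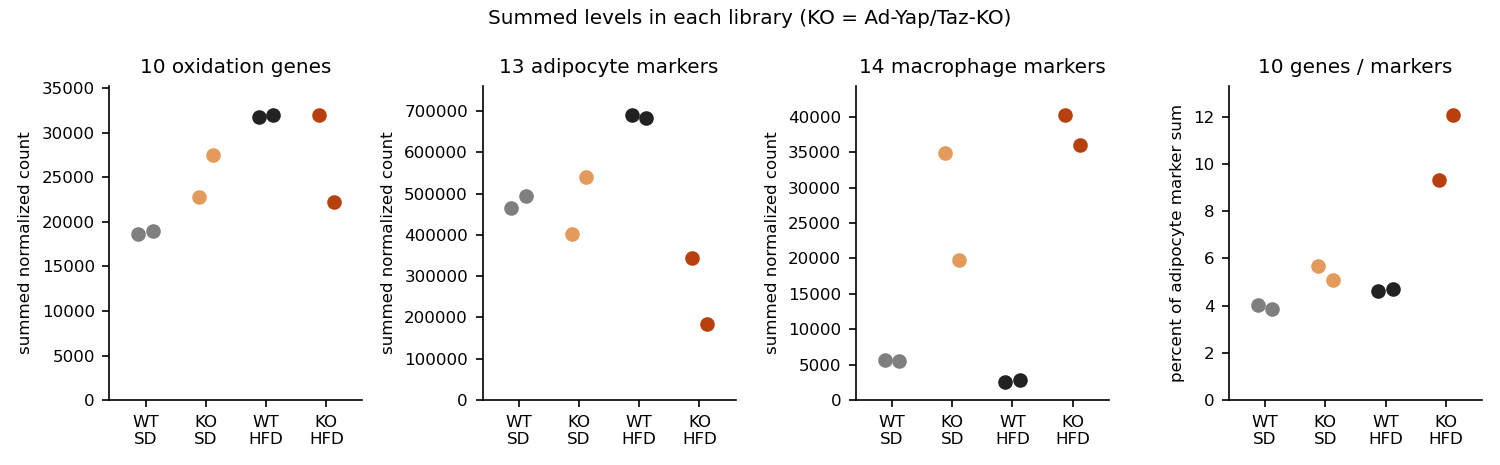
Summed normalized counts in each library (vertical axes, from 0) of the 10 genes, of 13 adipocyte markers and of 14 macrophage markers, and the first as a percentage of the second. The 10 genes sum to 32043 and 22219 in the KO HFD libraries, and their percentage of the adipocyte markers is 9.34 and 12.1 there, above all other libraries.

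The genes most like the family were found by the Pearson correlation of log2 levels with the mean standardised profile of the 10 genes over the 8 libraries, among 12083 other genes with a mean of at least 50. The highest were Mdh2 (0.981), Idh3a (0.980), Cspg4 (0.977), Echdc1 (0.976) and Slmo2 (0.972), and Etfdh held rank 9 (0.967). Mdh2 had 3242 and 3206 normalized counts in WT on SD, 3803 and 5109 in KO mice on SD, 5183 and 5393 in WT on HFD and 5629 and 3285 in KO mice on HFD. As Mdh2 was picked by this correlation, its likeness in the groups and in the gap between the KO HFD libraries is part of the choice and no separate finding. A correlation above 0.9 was reached by 181 genes, and the 8 points share their libraries and scaling.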

How the data were processed

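RNA-seq was carried out by the authors on 8 libraries, 2 in each of 4 groups given by the sample labels. Per the study's methods and the submitters' processing notes, ribosomal RNA was removed, single-end reads were trimmed, aligned to GRCm38 with STAR 2.5.2b and counted on exons with featureCounts 1.5.1, leaving out reads over several genes or places, and tested with DESeq2 1.14.1. The deposited values are a score: gene counts scaled by the authors with size factors and then rounded, so that count models were not run here. Intervals cover the spread between libraries only, reads carry no molecular identifiers, and p-values rest on 2 mice per group.

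Of 30387 genes, the 18800 whose mean reached 5 were tested with limma 3.58.1 in R 4.3.3 (lmFit on 4 group means, eBayes with trend) on log2(value + 1), which understates changes of low genes, with 4 residual and 8.59 prior degrees of freedom. A call needed p of 0.05 or less after Benjamini-Hochberg adjustment over all genes tested, and an absolute log2 fold change of 0.59 or more. All adjusted p-values are from limma. For 2 libraries against 2, an exact two-sided permutation test cannot go below p = 0.333. The fit was run on simulated data as a check of the code only, and no result given here rests on it. Tables and figures were made with Python 3.11.15, numpy 2.4.6, pandas 2.3.3 and matplotlib 3.10.9. The value of 1 read was estimated from the low values of each library. Lengths and overlaps came from GENCODE vM21, where 30259 identifiers were found, and promoters from RefSeq.

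The members and lists were chosen with earlier results of these data known. Genes named are the 10 members, 9 partners and regulators (Cpt1b, Slc25a20, Etfdh, Echs1, Decr1, Ppara, Ppargc1a, Pparg, Esrra), up to 3 called genes of each list with the largest change and a mean of at least 50, the 5 genes most like the family, and Yap1 and Wwtr1. The lists were activation and shuttle partners, other mitochondrial and peroxisomal beta-oxidation, regulators, PPAR-responsive genes, mitochondrial content, and markers of adipocytes, brown and beige adipocytes, macrophages, lymphocytes, endothelial cells, fibroblasts and progenitors, mesothelial cells and skeletal muscle. The alternatives were another pseudocount, filter, scaling, limit, eBayes or set of groups, the replicate number as a block, the WT HFD libraries as 1 sample, and leaving out each library. The lists were also counted under the other scalings, which was chosen after seeing the data.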

Additional observations from a re-analysis of the deposited data

Results flagged for a closer look

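For 2 of the 10 genes the interaction of genotype and diet was called, where 8.73% of all tested genes were called lower and 17.4% in either direction, and neither call held in most alternatives. For Cpt1a the interaction term was -0.85 on the log2 scale (standard error 0.27, limma adjusted p = 0.047). In WT the gene rose 2.65-fold with HFD, and in KO adipocytes the fold was 1.47 (adjusted p = 0.18). For Acadl it was -0.78 (standard error 0.24, adjusted p = 0.042), with 1.93-fold in WT and 1.12-fold in KO adipocytes (adjusted p = 0.68). Over the 20 alternatives the term of Cpt1a lay between -1.11 and -0.31 (adjusted p from 0.017 to 0.45) and that of Acadl between -1.02 and -0.24 (adjusted p from 0.0042 to 0.55). Both terms stayed negative in each, and each call was lost in 14 of the 20. In the same interaction 10 of 13 adipocyte markers were called lower (1 to 6 with the other scalings), and 13 of 14 macrophage, 7 of 8 endothelial and 7 of 8 fibroblast and progenitor markers were called higher. Their part in the terms of Cpt1a and Acadl was not tested.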

How the results depend on the processing

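Each of the 5 counts of genes called among the 10 was recomputed under 17 alternatives, or 20 for the interaction. The calls over all genes moved in the same fits. For HFD against SD in WT, 1643 genes were called higher as reported, 881 with no filter, 470 with the same total, 568 with upper-quartile scaling and 851 with quantile normalization. The interaction was called lower in 1641 genes as reported, 321 with no filter, 619 with the same total, 404 with upper-quartile scaling and 865 with quantile normalization. For HFD against SD in WT (7 called), the count was 3 with no filter on low values, 1 with the same total, 2 with upper-quartile scaling and with quantile normalization, 1 with the WT HFD libraries as 1 sample, 2 at an adjusted p of at most 0.01, and 1 to 2 with 1 library left out. For KO against WT on HFD (2 called, both lower), 1 gene was called lower with a pseudocount of 0.1, with the replicate block and with only the 2 groups compared. With the same total and with upper-quartile scaling, 1 gene, Acadvl, was called higher and 0 lower. With 1 library left out, Acadm ranged from -0.88 to -0.43 and Hadh from -1.06 to -0.27. With averaged WT HFD libraries the median of the 10 genes was -0.26, as with the pair kept apart. The count was 0 with no filter, with quantile normalization and at an adjusted p of at most 0.01, and 3, all lower, with no limit on the fold change. For KO against WT on SD (0 called), it was 1 with a pseudocount of 8 and with a mean of at least 50, 2 with quantile normalization, and 0 with any 1 library left out. For HFD against SD in KO (0 called), it was 1 with upper-quartile scaling and 0 to 1 with 1 library left out. For the interaction (2 called), it was 0 with a pseudocount of 0.1, no filter, each of the 3 other scalings, the replicate block, averaged WT HFD libraries and an adjusted p of at most 0.01, and 0 to 8 with 1 library left out. Causes were not tested, except that no filter adds genes to the adjustment and leave-outs remove libraries. A library left alone in its group was assumed to vary like the other groups.

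Each single difference was set beside its value in each alternative, so that many of these comparisons come from the same fit. Differences called as reported kept the call in 89 comparisons and lost it, with the same direction, in 104. Those not called stayed so with the same direction in 620, became called in 21 and changed sign in 46. With the same total, KO against WT on HFD became 0.20 for Acadl, 0.05 for Cpt1a, 0.19 for Cpt2 and 0.37 for Hadhb, HFD against SD in WT became -0.13 for Acadvl, and the interaction of Acadvl became 0.39. With quantile normalization, KO against WT on HFD became 0.21 for Acadl, 0.06 for Cpt2 and 0.12 for Hadhb, and the interaction of Acadvl became 0.20. With upper-quartile scaling, KO against WT on HFD became 0.19 for Acadl, 0.04 for Cpt1a, 0.18 for Cpt2 and 0.36 for Hadhb, that on SD became -0.08 for Acaa2 and -0.07 for Acadm, HFD against SD became 0.13 for Acadm and 0.03 for Hadh in KO and -0.05 for Acadvl in WT, and the interaction became 0.50 for Acadvl, 0.08 for Hadha and 0.03 for Hadhb. With 1 library left out, KO against WT on HFD ranged from -0.58 to 0.18 for Cpt2, -0.42 to 0.06 for Acadl, -0.06 to 0.39 for Hadha and -0.30 to 0.27 for Hadhb, and that on SD from -0.11 to 0.30 for Acadm, -0.06 to 0.47 for Hadh and -0.07 to 0.24 for Acaa2. HFD against SD in KO ranged from -0.32 to 0.44 for Cpt2, -0.07 to 0.41 for Acadl, -0.31 to 0.15 for Acadm, -0.91 to 0.08 for Acads, -0.04 to 0.42 for Hadha, -0.16 to 0.41 for Hadhb, -0.58 to 0.21 for Hadh and -0.09 to 0.21 for Acaa2, and the interaction of Acadvl from -0.28 to 0.21.

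The replicate numbers did not pair the libraries, since the deviations of same-numbered libraries correlated between -0.30 and 0.11. With the replicate block, 6 genes were called for HFD against SD in WT, 1 for KO against WT on HFD and 0 for the interaction. With 2 libraries per group, of which the WT HFD pair was unusually alike and the KO HFD pair far apart, a missed limit does not show that levels were equal.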

Other observations

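On HFD, brown and beige adipocyte markers had summed normalized counts of 201 and 186 (WT) and of 815 and 389 (KO), where 1 of 5 was called higher. Of the 8 skeletal muscle markers, Acta1 had 1359 and 2207 in KO mice on SD and 66 to 445 in the 6 other libraries, and was the 1 of 5 tested that was called higher in KO on SD (log2 4.12, adjusted p = 0.00046). The 7 other muscle markers summed to 74 and 63 in KO mice on SD, within the 23 to 90 of the 6 other libraries. Lymphocyte markers summed to 41 to 291 over the 8 libraries and mesothelial markers to 229 to 794.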
